A study of Mus musculus with 16 samples.

Results

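The circadian clock was examined in the mouse left ventricle through 10 genes: Arntl (also written Bmal1), Clock, Npas2, Per1, Per2, Per3, Nr1d1, Nr1d2, Dbp and Tef. They were taken as every probe set that the array annotation maps to one of these symbols and to no other gene, which gave 26 of the 45101 probe sets and 10 of the 18193 genes on the array. The brightest probe set of each gene stood for it, and all 10 of these passed the filter that left out the dimmest 40% of genes. In these tissues Per1 was the single one of the 10 genes that passed a test between groups. It did so between mice lacking PPARalpha and wild-type mice under pressure load, where 2.46% of all genes passed. The call was lost in 13 of 31 alternative settings. The 5 arrays with the highest Arntl signals were the 5 with the lowest Dbp signals, but the slope of Dbp on Arntl inside groups did not pass.

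Mice lacking PPARalpha, a nuclear receptor that switches on genes of fatty acid use (KO), and wild-type mice (WT) underwent transverse aortic constriction (TAC), which loads the left ventricle with pressure, or a sham operation, and total RNA was taken at day 28. The groups were PPARalpha-/- mice with TAC (KO TAC), PPARalpha-/- mice with a sham operation (KO sham), wild-type mice with TAC (WT TAC) and wild-type mice with a sham operation (WT sham), each with 4 arrays (Affymetrix). The design text asks for PPARalpha-related differences at rest and under sustained load. The labels give neither strain, age and sex nor the hour at which hearts were taken, and nothing in them states that the arrays of a group come from different mice. The p-values therefore cover only the variation among these arrays, part or all of which may be technical.

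The clock is a feedback loop of transcription. The activator ARNTL pairs with CLOCK or its relative NPAS2 and turns on the Per and Cry genes, whose proteins later shut the activator down, and the nuclear receptors NR1D1 and NR1D2, which repress Arntl. DBP and TEF are output factors of the same loop that carry its rhythm to other genes, and the mouse heart runs such a clock of its own, in which Arntl peaks when Nr1d1 and Dbp are low.

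The control sequences of the loop are short, and 4 promoter windows that hold a match to one of them are shown to place them. RefSeq promoter windows (assembly GRCm38.p6, from 250 bases before to 50 bases after a transcription start) were matched for 9 of the 10 genes, in 14 windows, and Per2 was not among them. Both strands were searched for the E-box CACGTG and the related AACGTG, which ARNTL with CLOCK binds, for the D-box (TTATGTAA, TTACGTAA or TTACATAA) of the DBP family, for the core of the NR1D1 and ROR element (TAGGTCA or TGGGTCA) and for the cyclic AMP element TGACGTCA. No match was found in 8 of the 14 windows, among them every window of Clock (3), Npas2, Nr1d2 and Dbp (1 each) and 1 of the 2 windows of both Arntl and Per1. Capitals mark the matches in the following windows, each read 5′ to 3′ on the gene's own strand. The Arntl window with a match is chr7:113207261-113207560 on the plus strand, the Nr1d1 window chr11:98775328-98775627 on the minus strand, the Per1 window with a match chr11:69098699-69098998 on the plus strand and the Per3 window chr4:151044616-151044915 on the minus strand.
Arntl: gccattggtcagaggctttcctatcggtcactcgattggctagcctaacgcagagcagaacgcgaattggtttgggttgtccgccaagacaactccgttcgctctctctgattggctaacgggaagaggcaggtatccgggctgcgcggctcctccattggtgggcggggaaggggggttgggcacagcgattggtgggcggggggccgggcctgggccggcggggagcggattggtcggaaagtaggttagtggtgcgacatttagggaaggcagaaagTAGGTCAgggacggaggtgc
Nr1d1: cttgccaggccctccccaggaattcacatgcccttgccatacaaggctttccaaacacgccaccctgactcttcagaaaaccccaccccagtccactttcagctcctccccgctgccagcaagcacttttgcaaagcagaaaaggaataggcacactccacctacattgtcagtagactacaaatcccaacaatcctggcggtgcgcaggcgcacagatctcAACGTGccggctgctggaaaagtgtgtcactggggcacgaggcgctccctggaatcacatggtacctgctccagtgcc
Per1: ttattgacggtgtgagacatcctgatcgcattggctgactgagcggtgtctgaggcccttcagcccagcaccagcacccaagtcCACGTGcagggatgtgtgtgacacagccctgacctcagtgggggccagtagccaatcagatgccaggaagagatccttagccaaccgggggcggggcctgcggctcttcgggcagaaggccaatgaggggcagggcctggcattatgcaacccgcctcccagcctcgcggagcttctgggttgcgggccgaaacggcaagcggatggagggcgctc
Per3: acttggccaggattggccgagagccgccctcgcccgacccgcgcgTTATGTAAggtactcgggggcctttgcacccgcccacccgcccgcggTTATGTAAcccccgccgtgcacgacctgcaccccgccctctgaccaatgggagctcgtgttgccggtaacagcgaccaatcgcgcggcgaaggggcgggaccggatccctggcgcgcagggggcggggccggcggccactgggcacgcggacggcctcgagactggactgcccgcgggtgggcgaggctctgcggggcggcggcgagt
The Arntl window shown held 1 NR1D1 and ROR core, 30 bases after the start, an element found in 6.45% of all 32851 promoter windows. The Nr1d1 window held AACGTG 28 bases before the start (4.68% of all windows), and the Per1 window shown held the E-box 166 bases before the start (7.15% of all windows). The Per3 window held 2 copies of the D-box, 205 and 158 bases before the start (1.06% of all windows hold at least 1). Tef also had an E-box in each of its 2 windows, and the cyclic AMP element, found in 1.79% of all windows, was in none of the 14. These are matches of letters in a short window, and other stretches of the genes were not searched.

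All values are the authors' signal intensities, which had been scaled to the same trimmed mean on each array. Median signals lay between 108.3 and 163, and arrays correlated with their own group at 0.940 (WT TAC replicate 3) to 0.969 on average. Differences are log2 differences ± standard error from limma on all 16 arrays, a test was passed at a Benjamini-Hochberg adjusted p under 0.05 over 10916 genes, and the number of arrays limits the precision. The targeted gene, Ppara, had 388.1 to 524.7 intensity units in KO TAC, 524.2 to 727.1 in KO sham, 1384.9 to 2171.4 in WT TAC and 1546 to 2307.6 in WT sham, with no overlap between genotypes.

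Per1, a period gene that responds to light in the brain clock and to glucocorticoids in peripheral tissue, was higher in the loaded knockout hearts than in the loaded wild-type hearts. Its signal was 680.7, 538.8, 740.1 and 595.9 in KO TAC, and 379.9, 331.9, 481.2 and 379.2 in WT TAC. Every KO TAC array lay above every WT TAC array. The mean log2 signal was 9.31 ± 0.20 in KO TAC and 8.61 ± 0.22 in WT TAC (SD, n = 4 each), a 1.63-fold difference (0.70 ± 0.16, limma adjusted p = 0.0336).

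Per1 was thus 1 of 10 clock genes called in this comparison, where 2.46% of all genes were called, 1.32% as higher and 1.14% as lower. It was again the 1 clock gene of 10 at an unadjusted p under 0.05, against 16.4% of all genes. It was also the 1 clock gene without overlap between these groups, as were 9.55% of all genes. The call was near its threshold: over 31 alternative settings the difference ranged from 0.63 to 0.91 and the adjusted p from 0.00497 to 0.110, and it was lost in 13 of them. It was lost without any of WT TAC replicates 1, 2 and 4 or KO TAC replicates 1, 3 and 4 (adjusted p = 0.0541 to 0.110). The mean log2 signal of 18 hybridisation spike-in probe sets lay at 12.28 to 12.95 in KO TAC and 12.91 to 13.36 in WT TAC, and with it as a covariate the Per1 difference was 0.91 (adjusted p = 0.0714).

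The summed signals of some cell type markers also set these groups apart. Of 12 marker lists, the summed signal of 5 did not overlap: cardiomyocyte markers were lower in KO TAC (436609 to 565515) than in WT TAC (594841 to 811966), and brown adipocyte markers were lower as well (1971.4 to 2461.8 in KO TAC, 2637.3 to 3024.8 in WT TAC), through Cidea alone, since Ucp1 reached no more than 42.3 on any array. Atrial markers were higher (58087.1 to 71167.7 in KO TAC, 34025.3 to 49067.4 in WT TAC), as were macrophage markers (12122.2 to 15520.4 in KO TAC, 9546.7 to 11483.8 in WT TAC) and red blood cell markers (830.1 to 977.3 in KO TAC, 272 to 636 in WT TAC), the last through Alas2, since Hba-a1 reached no more than 141.8. The part of these cells in the Per1 difference was not tested, and in whole tissue fewer cells of a type and less RNA per cell cannot be told apart.

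In the other groups Per1 had 851.9, 682.3, 625.6 and 854.9 in KO sham, and 448.4, 606.8, 618 and 672.2 in WT sham. WT TAC was the lowest of the 4 groups and KO sham the highest, at 9.54 ± 0.23 (log2, SD, n = 4), with KO TAC and WT sham (9.18 ± 0.26) between them. Neighbours in that order overlapped. The WT TAC arrays had -0.57 ± 0.16 relative to WT sham (limma adjusted p = 0.536) and the KO sham arrays 0.36 ± 0.16 relative to WT sham (adjusted p = 0.530), neither of which passed.

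**Figure D1:**
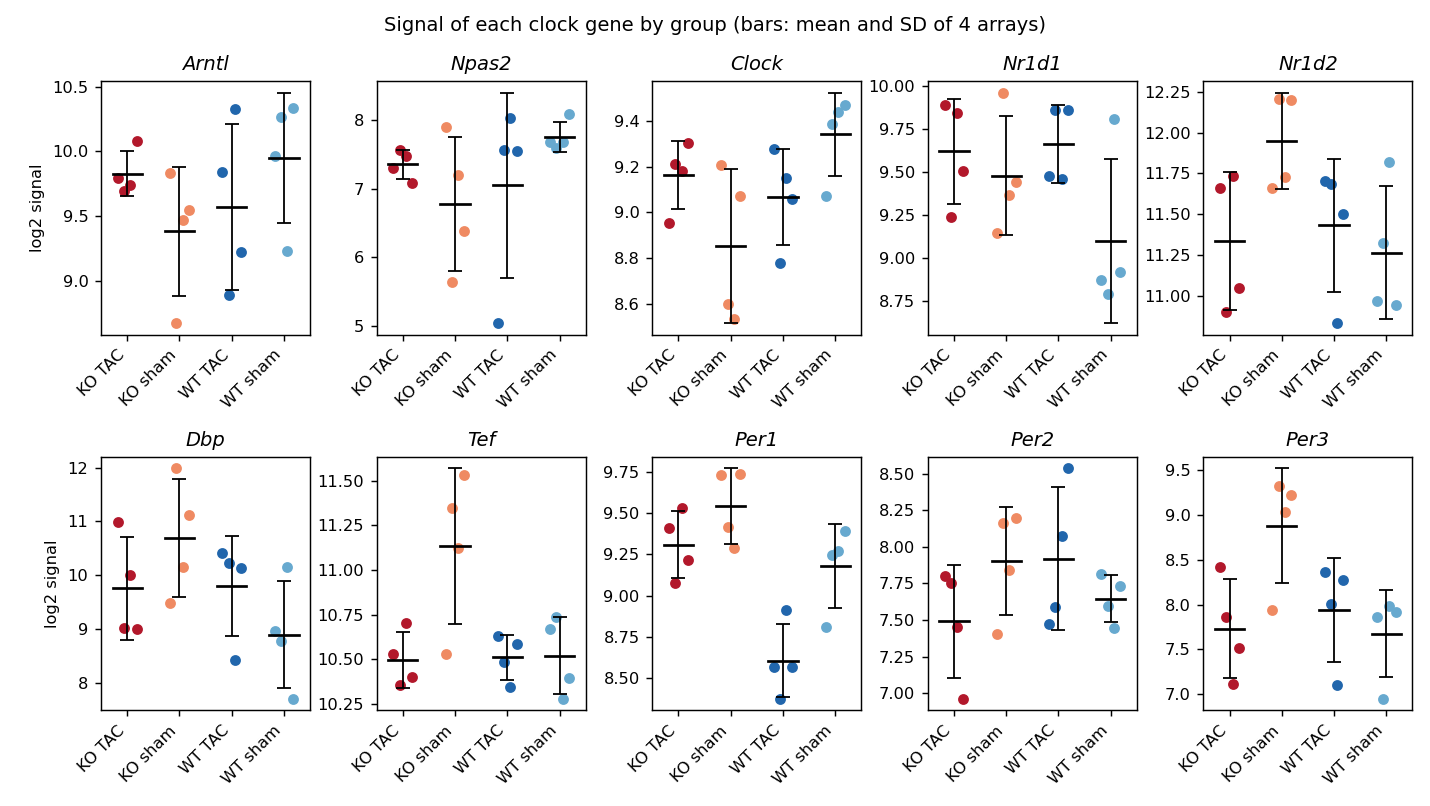
Log2 signal of each clock gene on the 4 arrays of KO TAC, KO sham, WT TAC and WT sham (points), with the mean and SD of the group (bars), each gene on its own axis. The 4 KO TAC points of Per1 lie above the 4 WT TAC points, while those of the other 9 genes overlap between these groups.

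By their brightest probe sets, the other 9 clock genes gave small differences between the genotypes under load. They ranged from -0.43 ± 0.25 for Per2 (limma adjusted p = 0.412) to 0.31 ± 0.55 for Npas2, and the median over the 10 genes was -0.03, against 0.03 over all genes. Nr1d1, Nr1d2, Dbp and Tef lay between -0.10 and -0.02. These 4 had positive values (0.09 to 0.18) after centring of arrays on their medians, a step that shifted all genes to a median of 0.22. Other probe sets past the filter gave -0.96 ± 0.71 for Nr1d2, 0.15 ± 0.51 for Dbp and -0.82 ± 0.42 for Tef, none past the test. The Arntl value was 0.26 ± 0.32 by its bright probe set but -1.28 ± 0.53 by the dim one, neither past the test.

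At rest, the widest differences between knockout and wild-type hearts were those of Dbp and Per3, but no clock gene passed the test in KO sham versus WT sham, where 0.742% of all genes were called, 0.229% as higher and 0.513% as lower. At an unadjusted p under 0.05 there were 6 of 10 (Clock, Per1, Per3, Nr1d2, Dbp and Tef), against 8.52% of all genes, and the median of the 10 was 0.37, against 0.02 over all genes. No gene of the 10 separated these groups without overlap, as 5.91% of all genes did. The activators had negative values (Arntl -0.57, Clock -0.49, Npas2 -0.97), and the 7 repressors and outputs positive ones.

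Dbp, a PAR leucine zipper factor and one of the strongest rhythmic outputs of the clock, had 715.1, 4063.8, 1143 and 2218.7 in KO sham, and 495.5, 437.9, 1133.4 and 208.1 in WT sham. KO sham replicate 1 lay inside the range of WT sham, and WT sham replicate 3 was close to KO sham replicate 3. The difference was 1.79 ± 0.64 (3.46-fold, limma adjusted p = 0.355), so its size was large but so was the spread inside each group (SD of 1.10 in KO sham and 1.00 in WT sham).

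The second Dbp probe set gave the same order of arrays inside each sham group. It read 557.2, 2580.7, 960.3 and 1377.7 in KO sham, and 367.9, 315, 629.2 and 303.2 in WT sham (1.61 ± 0.51). Over the 16 arrays, as a description, the log2 signals of the 2 Dbp probe sets had a Pearson correlation of 0.958 and a Spearman correlation of 0.947. The spread of Dbp was thus seen by both sets of probes on these arrays.

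Tef, a relative of Dbp in the same output arm, had 1478.3, 2604.4, 2233.1 and 2963.6 in KO sham, and 1629.1, 1703.7, 1242.6 and 1347.7 in WT sham. KO sham replicates 2 to 4 lay above all WT sham arrays, and KO sham replicate 1 lay among them. The difference was 0.61 ± 0.18 (limma adjusted p = 0.219), and without KO sham replicate 1 it was 0.81 and passed (adjusted p = 0.0159). A dimmer Tef probe set past the filter gave 0.21 ± 0.42. On it KO sham replicate 4, the highest by the bright probe set, was the lowest of its group (64.4, against 109.5 to 168.8).

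Per3, a period gene that the mouse clock can run without, had 244.6, 642.6, 524.8 and 598 in KO sham, and 232, 123.6, 252.6 and 241.8 in WT sham. Again KO sham replicates 2 to 4 lay above every WT sham array and replicate 1 did not. The difference was 1.20 ± 0.37 (limma adjusted p = 0.246). Of the other 5 Per3 probe sets, 3 fell below the filter, and the remaining 2 gave 1.78 ± 0.78 and 0.03 ± 0.55.

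The receptors that repress Arntl had smaller differences than Dbp and Per3. Nr1d2, a close relative of Nr1d1, had 3239, 4732.1, 3397.6 and 4704.1 in KO sham, and 2010.3, 2566.3, 3615 and 1971.1 in WT sham. WT sham replicate 3 lay inside the KO sham range and the other 3 below it, and the difference of 0.68 ± 0.26 did not pass (limma adjusted p = 0.396). Nr1d1 had 566.4, 996.2, 659.7 and 694.7 in KO sham, and 469.9, 444, 897.4 and 484.9 in WT sham (0.38 ± 0.23, adjusted p = 0.724), where WT sham replicate 3 stood high and KO sham replicate 2 highest.

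The activators had values of the opposite sign. Arntl had 914, 408.3, 709.2 and 749.6 in KO sham, and 1000.8, 1234.1, 601.3 and 1290.2 in WT sham. WT sham replicate 3, high in Nr1d1, was the low one of its group in Arntl, and KO sham replicate 2, highest in Nr1d1 and Dbp, had the lowest Arntl of all 16 arrays. The dim Arntl probe set repeated this only in part. There WT sham replicate 3 (203.3) was low together with replicate 2 (195.6), against 359.3 in replicate 1 and 371.3 in replicate 4. KO sham replicate 2 read 175.1, inside its group (157.8 to 193.9). The lowest array was KO TAC replicate 3 (23.6). By the bright probe set the difference of -0.57 ± 0.32 did not pass (limma adjusted p = 0.683), and it was -0.60 ± 0.53 by the dim one.

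Clock, the partner of Arntl, had 590.3, 387.7, 370.9 and 538.5 in KO sham, and 538.8, 668.9, 694.4 and 708.4 in WT sham, with KO sham replicate 1 above WT sham replicate 1 and no other overlap (-0.49 ± 0.16, limma adjusted p = 0.301). The other 3 Clock probe sets gave -0.05 ± 0.25, -0.60 ± 0.39 and -0.11 ± 0.29, the first of these the next brightest. Npas2, which can stand in for Clock, had 238.3, 50, 146.3 and 83.5 in KO sham, and 204.4, 192.1, 204.3 and 270.8 in WT sham (-0.97 ± 0.55, adjusted p = 0.684). For Npas2, 3 of the KO sham arrays lay below all WT sham arrays. Per2, a period gene whose mutation disturbs the daily rhythm of mice, had 169.3, 286.7, 229.5 and 292.9 in KO sham, and 224.9, 193.6, 174.3 and 212.1 in WT sham (0.25 ± 0.25).

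**Figure D2:**
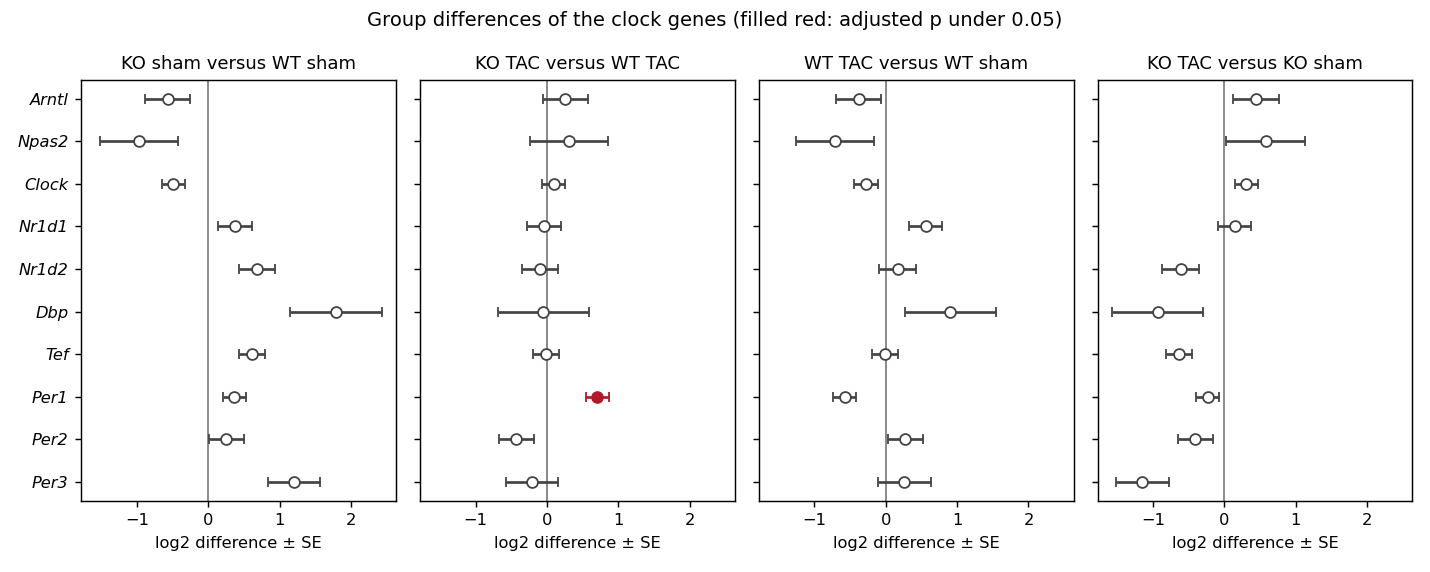
Log2 difference ± standard error of the 10 clock genes in KO sham versus WT sham, KO TAC versus WT TAC, WT TAC versus WT sham and KO TAC versus KO sham (limma, 4 arrays per group). Per1 in KO TAC versus WT TAC (0.70) is the one filled point, and in KO sham versus WT sham Dbp (1.79) and Per3 (1.20) lie farthest to the right without passing.

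The summed signal of 3 marker lists did not overlap between the sham groups: atrial markers (28361.6 to 55460.4 in KO sham, 15896.7 to 28166.6 in WT sham) and macrophage markers (11963.7 to 12907.4 in KO sham, 9108.9 to 11251.1 in WT sham) were higher in KO sham, and brown adipocyte markers (1807.7 to 2066.1 in KO sham, 2326.2 to 3068.4 in WT sham) lower. Their part in the clock values was not tested.

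In knockout hearts, no clock gene passed the test in KO TAC versus KO sham, where 2.57% of all genes were called, 1.58% as higher and 0.98% as lower. At an unadjusted p under 0.05 there were 3 of 10 (Per3, Nr1d2 and Tef), against 16% of all genes, and no gene of the 10 separated the groups, as 10.8% of all genes did. This comparison and KO sham versus WT sham share the KO sham arrays, so that their values for one gene are tied. Tef had 1475.8, 1310.8, 1666.2 and 1349.8 in KO TAC, and the KO sham values above.

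The KO TAC arrays of Tef lay below all KO sham arrays, except replicate 3, which lay above KO sham replicate 1. The difference was -0.64 ± 0.18 (limma adjusted p = 0.0820), the value nearest to the threshold. It passed without KO sham replicate 1 (-0.84, adjusted p = 0.00833), as did Per3 (-1.47, adjusted p = 0.0451), and Tef also passed with the dimmest 60% of genes left out (adjusted p = 0.0411) and in limma with trend and robust (adjusted p = 0.0340).

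Per3 had 343.2, 233.1, 138.9 and 183.1 in KO TAC, for a difference of -1.15 ± 0.37 from KO sham (limma adjusted p = 0.127). Nr1d2 had 3232.4, 1916.8, 3408.5 and 2117.1 in KO TAC (-0.61 ± 0.26, adjusted p = 0.244), with replicates 1 and 3 near the low KO sham arrays and replicates 2 and 4 far below them. Dbp had 2040.1, 517.8, 1026.5 and 509.4 in KO TAC (-0.93 ± 0.64, adjusted p = 0.527). The same KO TAC replicates 2 and 4 were the low ones for Dbp.

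Arntl in KO TAC was nearly level, at 889.1, 826.5, 855.5 and 1083, inside the range of WT sham and with the smallest SD of the 4 groups (0.17). The difference from KO sham was 0.44 ± 0.32 (limma adjusted p = 0.550), and it was -1.24 ± 0.53 by the dim probe set. The remaining KO TAC arrays lay at 605.3 to 947.4 for Nr1d1, 496.1 to 632.3 for Clock, 135.6 to 188.7 for Npas2 and 124.7 to 222.5 for Per2, with differences from KO sham between -0.41 for Per2 and 0.58 for Npas2. Of the 12 marker lists, 4 had higher sums in KO TAC without overlap: atrial (58087.1 to 71167.7 in KO TAC, 28361.6 to 55460.4 in KO sham), fibroblast (42852.2 to 49967.1 in KO TAC, 34018.5 to 38268.5 in KO sham), red blood cell (830.1 to 977.3 in KO TAC, 672.8 to 792.8 in KO sham) and skeletal muscle markers (91750.1 to 124024 in KO TAC, 59592.7 to 83591.9 in KO sham, with Myh4 at no more than 86.7). Single genes of the atrial and skeletal muscle lists disagreed in sign. Of the 4 atrial genes, 1 had a positive log2 difference and 3 a negative one (median -1.14). The brightest of them was Nppa, at 15481.6 to 69233.9 over all arrays. Of the 2 skeletal muscle genes tested, Acta1 and Ckm, 1 was positive and 1 negative, and Tnnt3 reached no more than 155.6. The part of these markers in the values of this comparison was not tested.

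In wild-type hearts, limma called 0 of the 10 clock genes and 0 of 10916 genes (0%) in WT TAC versus WT sham. At an unadjusted p under 0.05 there were 2 clock genes, Per1 and Nr1d1, against 7.62% of all genes, and none of the 10 separated the groups, as 4.28% of all genes did. Nr1d1 had 711.9, 929.2, 702.7 and 927.2 in WT TAC, for a difference of 0.56 ± 0.23 from WT sham (adjusted p = 0.623). All 4 WT TAC arrays lay above 3 of the WT sham arrays and WT sham replicate 3, at 897.4, lay among them.

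Dbp had 1370.2, 1203.8, 341.1 and 1128.4 in WT TAC (0.91 ± 0.64 relative to WT sham, limma adjusted p = 0.781), and Arntl had 917.8, 474, 1286.5 and 597.9 (-0.38 ± 0.32). WT TAC replicate 3 was the lowest of its group in Dbp and the highest in Arntl. The other ranges in WT TAC were 1827.9 to 3338.9 for Nr1d2, 1301.5 to 1585.6 for Tef, 137.3 to 330.3 for Per3, 177.3 to 371.2 for Per2, 440 to 620.3 for Clock and 32.9 to 261.4 for Npas2. Cardiomyocyte markers summed to 594841 to 811966 in WT TAC and 473029 to 570719 in WT sham, and atrial, skeletal muscle and lymphocyte markers also had higher sums in WT TAC without overlap. Of the 4 atrial genes, though, 1 had a positive log2 difference and 3 a negative one (median -1.98).

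The responses to TAC were then compared between the genotypes by the interaction, in which limma called 0 of 10 clock genes and 0% of all genes. At an unadjusted p under 0.05 there were 4 clock genes (Clock, Per3, Nr1d2 and Tef), against 10.3% of all genes. Among the brightest probe sets, Dbp had the widest interaction value, at -1.84 ± 0.91 (adjusted p = 0.500), followed by Per3 at -1.41 ± 0.52 (adjusted p = 0.396). The other Per3 probe sets past the filter gave 0.34 ± 0.77 and -1.12 ± 1.10. By the brightest probe sets the activators had 0.82 (Arntl), 0.59 (Clock) and 1.29 (Npas2). The sign turned with other probe sets of the first 2 genes, at -0.68 ± 0.75 for the dim one of Arntl and -0.13 and -0.09 for 2 of the other 3 of Clock, so no direction is given for them.

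The order of group means was alike for several outputs and the opposite for the activators. KO sham had the highest mean for Dbp (10.69 ± 1.10, log2, SD, n = 4), Tef (11.13 ± 0.44), Per3 (8.88 ± 0.64) and Nr1d2 (11.95 ± 0.29), and the lowest for Arntl (9.38 ± 0.50), Clock (8.85 ± 0.34) and Npas2 (6.78 ± 0.98). WT sham had the highest mean for Arntl (9.95 ± 0.50), Clock (9.34 ± 0.18) and Npas2 (7.75 ± 0.22), and the lowest for Dbp (8.89 ± 1.00), Per3 (7.68 ± 0.49), Nr1d1 (9.10 ± 0.48) and Nr1d2 (11.27 ± 0.41). Neighbouring groups in these orders overlapped, except WT sham (192.1 to 270.8) and KO TAC (135.6 to 188.7) for Npas2. The means are those of the brightest probe sets. By the dim Arntl probe set KO TAC had the lowest mean (6.24 ± 1.24), and KO sham had 7.47 ± 0.13. Clock was highest in WT TAC by its next brightest probe set (8.98 ± 0.28) and its dimmest (7.19 ± 0.51). By the remaining Clock probe set WT sham was highest (8.48 ± 0.45). A dimmer Tef probe set past the filter had 6.87 ± 0.39 in WT TAC and 6.81 ± 0.59 in KO sham. The groups share 1 set of arrays across genes, so the genes are not separate pieces of evidence.

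**Figure D3:**
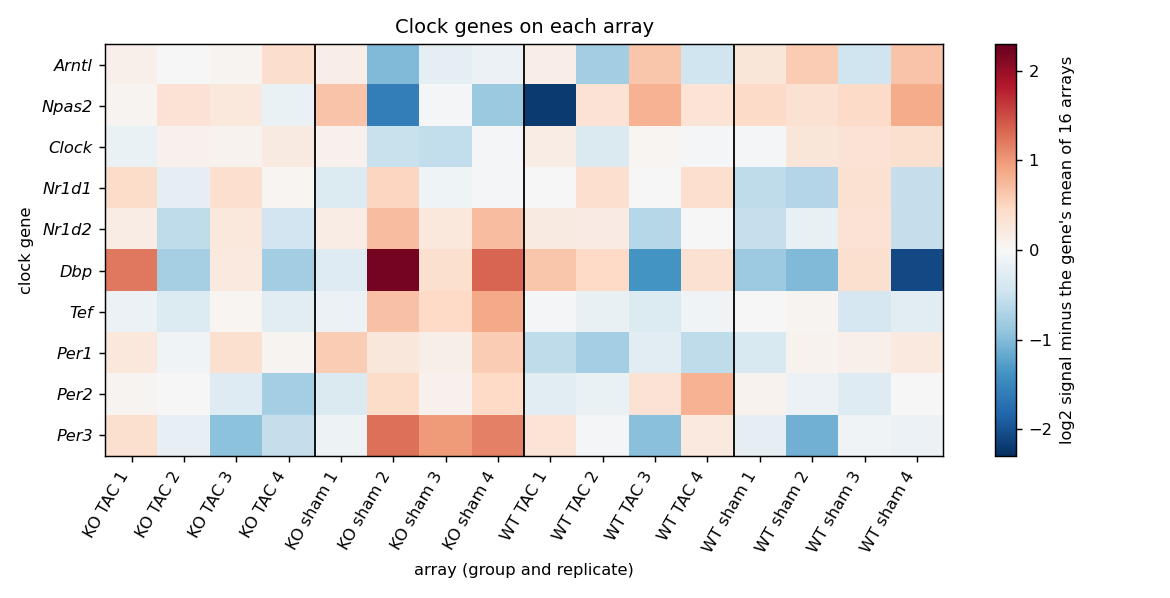
Log2 signal of each clock gene (rows) on each of the 16 arrays (columns, in the groups KO TAC, KO sham, WT TAC and WT sham), minus the gene's mean over the 16 arrays. KO sham replicate 2 is dark red for Dbp (4063.8) and blue for Arntl (408.3), and WT sham replicate 4 and WT TAC replicate 3 show the reverse.

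Single arrays lay farther apart than group means. Dbp ranged 19.5-fold over the 16 arrays, from 208.1 in WT sham replicate 4 to 4063.8 in KO sham replicate 2. Those 2 arrays were also the extremes of Arntl, which ranged 3.16-fold, from 408.3 in KO sham replicate 2 to 1290.2 in WT sham replicate 4. The 5 arrays with the highest Arntl (WT sham replicates 4, 2 and 1, WT TAC replicate 3 and KO TAC replicate 4) were the 5 arrays with the lowest Dbp. This order is that of the bright Arntl probe set. By the dim one WT TAC replicate 3 was highest (402) and KO TAC replicate 3 lowest (23.6).

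At the other end, the arrays followed Arntl less closely. Of the 5 arrays with the lowest Arntl, 2 were among the 5 with the highest Dbp (KO sham replicate 2 and WT TAC replicate 2). KO TAC replicate 1 ranked 3 of 16 in Dbp, at 2040.1, with an Arntl signal of 889.1 in the middle of the range. Within each sham group 1 array differed from the rest in the way the other sham group did: KO sham replicate 1 ranked 10 of 16 in Dbp and 7 in Arntl, and WT sham replicate 3 ranked 7 in Dbp and 13 in Arntl.

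The spread inside groups, after the group means were removed, placed several clock genes among the most variable on the array. The within-group SD of Dbp was 0.998 (log2), above 98.7% of tested genes and above 99.7% of the 1091 genes of similar mean signal. Nr1d2 exceeded 77.1% of all genes and 96.3% of those of similar signal, and Arntl (0.486) exceeded 86.0% of all genes and more of those of similar signal than Nr1d2 did. The median over the 10 genes was 0.378, against 0.250 over all genes, and 8 of the 10 lay above the 50th percentile of all genes.

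Per1 and Clock were not among the variable ones, at 43.3% and 44.0% of all genes. Npas2 exceeded 97.1% of all genes but 81.9% of those of similar signal, and Per2 exceeded 74.8% and 34.5%.

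**Figure D4:**
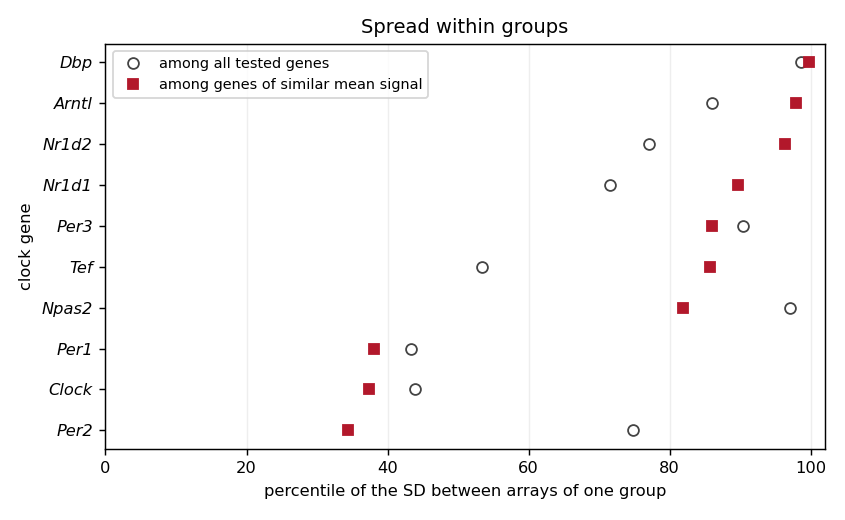
Percentile of each clock gene's SD between arrays of one group, among all tested genes (open circles) and among 1091 genes of similar mean signal (filled squares). Dbp, Arntl and Nr1d2 lie above 96% of genes of similar signal, and Per1, Clock and Per2 below 40%.

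Whether clock genes moved together from array to array inside groups was tested by the slope of each gene on the Arntl signal, with 1 intercept per group. Nr1d1 had a slope of -0.57 ± 0.13 (log2 per log2 unit of Arntl, limma adjusted p = 0.145), Dbp of -1.51 ± 0.38 (adjusted p = 0.146), Nr1d2 of -0.51 ± 0.18 (adjusted p = 0.271) and Per3 of -0.62 ± 0.27 (adjusted p = 0.378). None of the 9 slopes passed, and 0% of the other 10915 genes did. At an unadjusted p under 0.05 there were 4 of 9, the genes just named, against 12.5% of all genes. The sign for Per3 depended on the probe set: its others past the filter had 0.60 ± 0.45 and -1.06 ± 0.61, neither past the test.

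As a description of the same deviations over the 16 arrays, which share their group means, Arntl had a Pearson correlation of -0.785 with Nr1d1 (Spearman -0.674), -0.736 with Dbp (-0.732), -0.636 with Nr1d2 (-0.574) and -0.529 with Per3 (-0.456). With its partner Clock it had 0.512 and with Per1 0.450. Without the 2 arrays farthest from the median of the Arntl deviations (WT sham replicate 3 and KO sham replicate 2, both low in Arntl for their group), the values were -0.550 for Nr1d1, -0.554 for Dbp and -0.476 for Nr1d2. Without the 2 arrays farthest from their group mean (WT TAC replicate 3, at 0.76 above it, and WT sham replicate 3, a choice added after the data were seen), they were -0.707 for Nr1d1, -0.531 for Dbp and -0.267 for Nr1d2, so the relation rests in part on those 3 arrays. Of 10915 genes, 37 were more inverse to Arntl than Nr1d1 was and 93 more than Dbp, and 334 genes passed 0.7 in either sense. After centring of arrays on their medians, Arntl had -0.938 with Nr1d1, -0.785 with Dbp and -0.699 with Nr1d2. The same step lowered its correlation with Clock to 0.270 and with Per1 to 0.128.

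**Figure D5:**
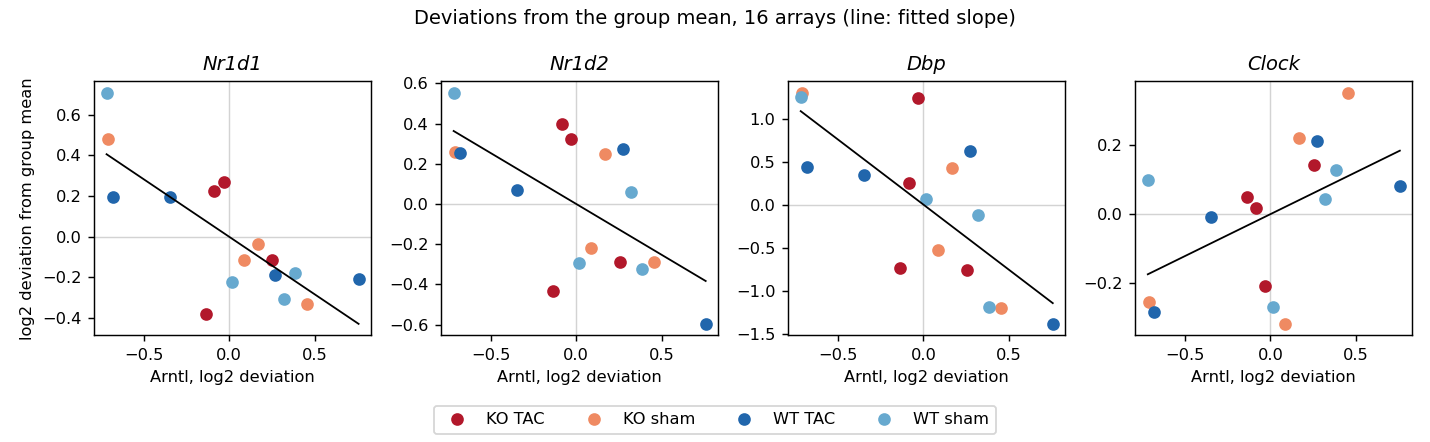
Deviation of Nr1d1, Nr1d2, Dbp and Clock from their group mean (log2, vertical) against that of Arntl (horizontal) on the 16 arrays, coloured by group, with the fitted slope as a line. The fitted lines fall for Nr1d1 (-0.57), Nr1d2 (-0.51) and Dbp (-1.51) and climb for Clock (0.24), none past the test, and the KO TAC points span little of the Arntl range.

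The genes with the highest within-group correlation to Arntl were Rbm4b, an RNA-binding protein gene (0.908), Ube3c, a ubiquitin ligase gene (0.877), Armc8 (0.877), Rassf1 (0.875) and Dppa3 (0.867). Those with the lowest were Tmem70, an assembly factor gene of the mitochondrial ATP synthase (-0.915), Zyg11b (-0.863), Abhd4 (-0.858), Ormdl1 (-0.857) and Fkbp1a (-0.857). No core clock gene was among these 10, and 1 unnamed transcript was skipped.

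For Dbp the list did include a clock gene. The highest correlations were with Nsmce4a (0.926), Nr1d2 (0.892), Cnot4 (0.875), the deubiquitinase gene Usp2 (0.863) and Leprot (0.861). The lowest were with the phosphate transporter gene Slc20a1 (-0.930), Otud1 (-0.887), Sec14l1 (-0.882), the cell cycle inhibitor gene Cdkn1a (-0.876) and Armc8 (-0.861). Nr1d2 had a slope of 0.35 ± 0.05 on Dbp (limma adjusted p = 0.0786), and Nfil3, the repressor that competes with DBP for the D-box, had -0.63 ± 0.13 (adjusted p = 0.175), neither past the test.

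The wider clock was read from 17 further genes, of which 14 were tested. Fbxl21 was below the filter, and the others were not analysed here. In KO sham versus WT sham 1 rose (0.229% of all genes did), 0 fell and the list median was 0.17, against 0.02 over all genes. Csnk1e, a kinase that marks PER proteins for breakdown, had 1773.7, 1608.1, 1804.9 and 1971.5 in KO sham, and 1243, 1104.9, 1034.4 and 1086.5 in WT sham. The groups did not overlap and the gene rose by 0.68 ± 0.14 (limma adjusted p = 0.0287), a call lost in 11 of 30 alternatives, among them the mean of its probe sets (0.45, adjusted p = 0.774) and 6 of the 8 fits that left out a sham array (adjusted p = 0.0706 to 0.112).

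Among those that did not pass at rest, the nuclear receptor gene Rorb gave 0.83 ± 0.24 (limma adjusted p = 0.214) and the repressor gene Ciart 2.01 ± 0.72 (adjusted p = 0.359). Ciart had 269.3, 940.1, 198.6 and 424.8 in KO sham, and 20.2, 180.4, 258.4 and 86.3 in WT sham. Its highest array was KO sham replicate 2, as for Dbp.

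In KO TAC versus KO sham 1 of the 14 fell and 0 rose, where 0.98% of all genes fell and 1.58% rose, and 2 of the 14 did not overlap, against 10.8% of all genes. Hlf, the third PAR leucine zipper factor beside Dbp and Tef, had 266.2, 192.7, 245.7 and 188.3 in KO TAC, and 292.8, 505.5, 468.7 and 570 in KO sham. The groups did not overlap and Hlf fell by 1.01 ± 0.24 on the log2 scale (limma adjusted p = 0.0366), a call lost in 14 of 29 alternatives, with quantile normalization (adjusted p = 0.0539), centring on medians (0.101) and the arrays compared alone (0.0766) among them. Rora (-0.66 ± 0.19, adjusted p = 0.0853) and Timeless (0.51 ± 0.14, adjusted p = 0.0762) came next.

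None of the 14 was called in KO TAC versus WT TAC, WT TAC versus WT sham, the interaction or the slope on Arntl. At an unadjusted p under 0.05 there were 3 of 14 in each of the first 2, against 16.4% of all genes in KO TAC versus WT TAC and 7.62% in WT TAC versus WT sham. In the interaction there were 2 of 14 (10.3% of all genes) and in the slope 1 of 14 (12.5%).

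A second list held 17 genes that follow the hour of day, glucocorticoids, or heat and cold, of which 16 were tested and Por was not analysed here. In KO TAC versus KO sham 1 rose and 1 fell, against 1.58% and 0.98% of all genes, and 2 of the 16 did not overlap (10.8% of all genes). Wee1, the cell cycle kinase gene that ARNTL with CLOCK drives in mouse liver, had 290.1, 312.6, 308.2 and 236.2 in KO TAC, and 442.9, 594.6, 589.5 and 652.4 in KO sham. It fell by 0.98 ± 0.19 on the log2 scale without overlap (limma adjusted p = 0.0116), a call that held in 26 of 29 alternatives and was lost with the mean of its probe sets (-0.52, adjusted p = 0.229), the spike-in signal as a covariate (adjusted p = 0.0606) and without 3 arrays of extreme spike-in signal (adjusted p = 0.0686).

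Hsp90aa1, the inducible form of a chaperone gene, had 7371, 10926.7, 10677.2 and 11552 in KO TAC, and 7177.1, 6015.8, 6098.6 and 6672.6 in KO sham. It rose by 0.62 ± 0.14 (limma adjusted p = 0.0323), without overlap but with KO TAC replicate 1 close to KO sham, and lost the call in 12 of 30 alternatives. In KO TAC versus WT TAC the same gene had 0.57 ± 0.14 (adjusted p = 0.0511) and the glucocorticoid-induced Tsc22d3 0.63 ± 0.17 (adjusted p = 0.0739), neither of which passed.

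No gene of this second list was called in KO sham versus WT sham, where Wee1 (0.72 ± 0.19, limma adjusted p = 0.125) and the chaperone gene Hsph1 (-0.61 ± 0.16, adjusted p = 0.143) had the smallest p. None was called in WT TAC versus WT sham, in the interaction or in the slope on Arntl, where Cdkn1a (0.77 ± 0.17, adjusted p = 0.138) and Klf15 (0.41 ± 0.13, adjusted p = 0.216) had the smallest p.

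The labels name no hour of collection, so a difference between groups in these genes and a difference in the hour at which their hearts were taken cannot be told apart. Inside groups, where treatment and genotype are the same, the opposed positions of Arntl and of Dbp, Nr1d1 and Nr1d2 on single arrays are the values given above. Their relation to the hour was not tested.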

How the data were processed

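Left ventricular RNA of 16 arrays in 4 groups was analysed, with groups read from the titles. What the authors deposited is signal intensity on a linear scale, for which the submitters' processing notes name GCOS 1.4, and the mean of each array between the 2nd and 98th percentiles was 499.6 to 500.0. The sources used here give no algorithm settings.

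Intensities below 11.9 (the 10th percentile) were raised to it, and log2 values were used without renormalization. Gene symbols came from the array annotation (34945 probe sets with 1 symbol, 932 with several, 9160 with none, 64 controls). Each gene was represented by its brightest probe set, and the dimmest 40% were left out. Limma 3.58.1 in R 4.3.3 was fitted with 1 coefficient per group, two-sided, and the slope on Arntl in the same way. Fits were tested on simulated data. The members, the gene lists and the alternatives were chosen with earlier results of these data known. The text names all 10 genes, called genes of the 2 further lists with up to 2 of smallest p, and the 5 genes most and least correlated with Arntl and with Dbp.

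Alternatives were quantile normalization, centring on medians, other floors, no filter or a 60% filter, probe set means, all probe sets separately, no _x_at or _s_at probe sets, trend and robust or array weights in limma, a replicate block, the mean signal of 18 hybridisation spike-in probe sets as a covariate, fits without the 3 arrays whose spike-in signal was most extreme, the compared arrays alone, and each array left out in turn. For the slope, they also included Dbp in place of Arntl, no group terms, fits without the 2 arrays farthest from the median of the Arntl deviations and, added after the data were seen, fits without the 2 farthest from their group mean.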

Additional observations from a re-analysis of the deposited data

Results flagged for a closer look

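Within groups of 4 arrays, an array was singled out where its gap to the nearest other array, divided by the range of the group on the log2 scale, exceeded Dixon's 95% critical value. Of 164 groups of values, 9 (5.49%) did so, where chance gives about 1 in 20, and 4 of the 9 were among the 40 groups of the 10 clock genes. No explanation was tested.

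Npas2 in WT TAC replicate 1 was the low array of its group, at 32.9 (ratio 0.84). Dbp in WT TAC replicate 3 was low, at 341.1 (0.86). Per3 in WT sham replicate 2 was low, at 123.6 (0.881), and Nr1d1 in WT sham replicate 3 was high, at 897.4 (0.875). Of the further clock genes, Cry1 (148.9, ratio 0.866) and Bhlhe40 (693.2, ratio 0.962) were both low in WT TAC replicate 4. Of the responsive genes, Fkbp5 was low in WT sham replicate 3 (607.4, ratio 0.918), and Ddit4 was low in KO sham replicate 4 (2578.6, ratio 0.902) and high in WT TAC replicate 3 (10870.6, ratio 0.904).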

How the results depend on the processing

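The count of clock genes called stayed at 0 in all 31 alternatives for WT TAC versus WT sham, all 30 for the interaction and all 34 for the slope on Arntl. In KO TAC versus WT TAC the count of 1 became 0 with no filter on dim genes (Per1 adjusted p = 0.0864), probe set means (0.0563), the replicate block (0.0556), the spike-in signal as a covariate (0.0714), without 3 arrays of extreme spike-in signal (0.101), with only the arrays compared (0.102) and with all probe sets separately (0.0536), and ranged from 0 to 1 when single arrays were left out. The spike-in arrays (WT TAC replicate 3, KO TAC replicates 2 and 3) were picked in earlier work on these data. In KO TAC versus KO sham the count of 0 became 1 with the dimmest 60% left out and 1 in limma with trend and robust, in both cases Tef, and ranged from 0 to 2 when single arrays were left out. In KO sham versus WT sham it ranged from 0 to 1, with Tef called without KO sham replicate 1. No called value changed sign. Replicate numbers were not taken as pairs in the main fits. The deviations of same-numbered arrays from their group means correlated at -0.185 to 0.137, above 0.1 in 5 of 24 pairs. These values cannot decide whether same-numbered samples were handled together. With the replicate block, 0 clock genes were called in any of the 6 tests. Over all genes the number called ranged from 38 to 103 in KO sham versus WT sham, 56 to 424 in KO TAC versus WT TAC, 0 to 2 in WT TAC versus WT sham, 55 to 426 in KO TAC versus KO sham, 0 to 13 in the interaction and 0 to 17 for the slope. Centring arrays on their medians shifted all genes to a median of -0.12 for WT TAC versus WT sham, 0.13 for KO TAC versus KO sham, 0.25 for the interaction and -0.14 for the slope, and called 7 higher and 35 lower genes in KO sham versus WT sham (25 and 56 without it), 238 and 40 in KO TAC versus WT TAC (144 and 124) and 158 and 18 in KO TAC versus KO sham (173 and 107). The cause of each change was not tested. Signal over background limits the dim probe sets: of the 26, 7 fell below the filter.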
